A study of Mus musculus with 10 samples.

Results

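The antioxidant genes under the transcription factor NRF2, together with the microsomal epoxide hydrolase, were followed in the liver of lactating mice on 2 diets. The 10 genes were taken by symbol: Nfe2l2 (which encodes NRF2), Keap1, Nqo1, Gclc, Gclm, Hmox1, Srxn1, Txnrd1, Gpx1 and Ephx1. All probe sets annotated to exactly 1 of these symbols were used; on these arrays several short probes make up a probe set, and their combined signal is 1 transcript's level. This gave 19 of the 45037 probe sets tested, and all 10 of the genes had at least 1.

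Livers came from 10 QSi5 mice, with 1 expression array for each mouse. Both groups were kept on their diet from pregnancy until lactation peaked. For the 5 HGI mice (high glycaemic index) the diet was 51.4% glucose by weight and its gross energy 15.6 MJ per kg; they are labelled as in positive energy balance. For the 5 LGI mice (low glycaemic index) it was 51.4% of a starch that the labels call high amylase (Hi-Maze), at 16.3 MJ per kg, and they are labelled as in negative energy balance. Diet and energy balance therefore cannot be told apart. The labels used here give no age and name no altered gene in either group.

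NRF2 is held in the cytoplasm by KEAP1, which hands it to a ubiquitin ligase for breakdown. Oxidants and electrophiles modify KEAP1, NRF2 then enters the nucleus, pairs with a small MAF protein and binds antioxidant response elements near its target genes. In liver these targets make glutathione, reduce quinones and peroxides, break down haem and prepare drugs for excretion. Ephx1 hydrolyses reactive epoxides left by cytochromes P450, and it is also induced through the drug receptors CAR and PXR.

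At its single probe set, Ephx1 was 2.83-fold lower in HGI than in LGI, Nqo1 was 1.66-fold lower and Gpx1 was 1.40-fold lower, and at each of them every HGI mouse lay below every LGI mouse. None of the 19 probe sets passed an adjusted p under 0.05 over all probe sets (limma), against 0.0644% of all probe sets that did, and 0 of the 10 genes passed at their brightest probe set, against 0.0824% of all named genes. At an unadjusted p under 0.05, 7 of the 19 were lower in HGI and 0 higher, where 4.78% of all probe sets were lower and 2.76% higher. Counted by gene, 6 of the 10 were lower, where 6.23% of all named genes were lower. The diets separated without overlap, HGI below LGI, at 5 of the 19, those of Ephx1, Nqo1, Gpx1 and the brightest of Gclm and of Txnrd1, where 1.20% of all probe sets and 1.67% of all named genes did so. These counts are description only, since the genes were chosen with earlier results of these data known. Of the 19, 14 had a mean log2 of at least 6, as had 11472 of all 45037, so all probe sets are a dimmer background. The unmoderated two-sample test also called 0 of the 19, where it called 0.00222% of all probe sets. It gave 5 at an unadjusted p under 0.05, a count whose share over all probe sets was not taken. The sensor pair Nfe2l2 and Keap1, and also Gclc and Hmox1, had differences near 0. Since a whole liver was measured, fewer cells of a type and less RNA per cell cannot be told apart.

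Over the 10 genes, each at its brightest probe set (that of the highest mean over the 10 arrays), the median difference was -0.28 on the log2 scale, HGI minus LGI. The median over all 18193 named genes was -0.03, and over the 7161 of them whose mean log2 reached 6 it was -0.04. Of the 10 genes 6 had a difference below 0, and 58.2% of all named genes did. The median of the 10 was -0.20 without the array HGI 1 and -0.15 without both HGI 1 and LGI 4. Those arrays resembled their own group least (mean correlation 0.989 and 0.988, against 0.991 to 0.993 for the other 8), and the values of HGI 1 were the least spread (SD 2.16 log2, against 2.26 to 2.31). Without HGI 1 the count at an unadjusted p under 0.05 stayed at 7 of 19, where 4.37% of all probe sets were lower. Without LGI 4 it was 5, where 4.79% of all probe sets were lower, and without both arrays it was 6, where 4.80% were.

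**Figure D1:**
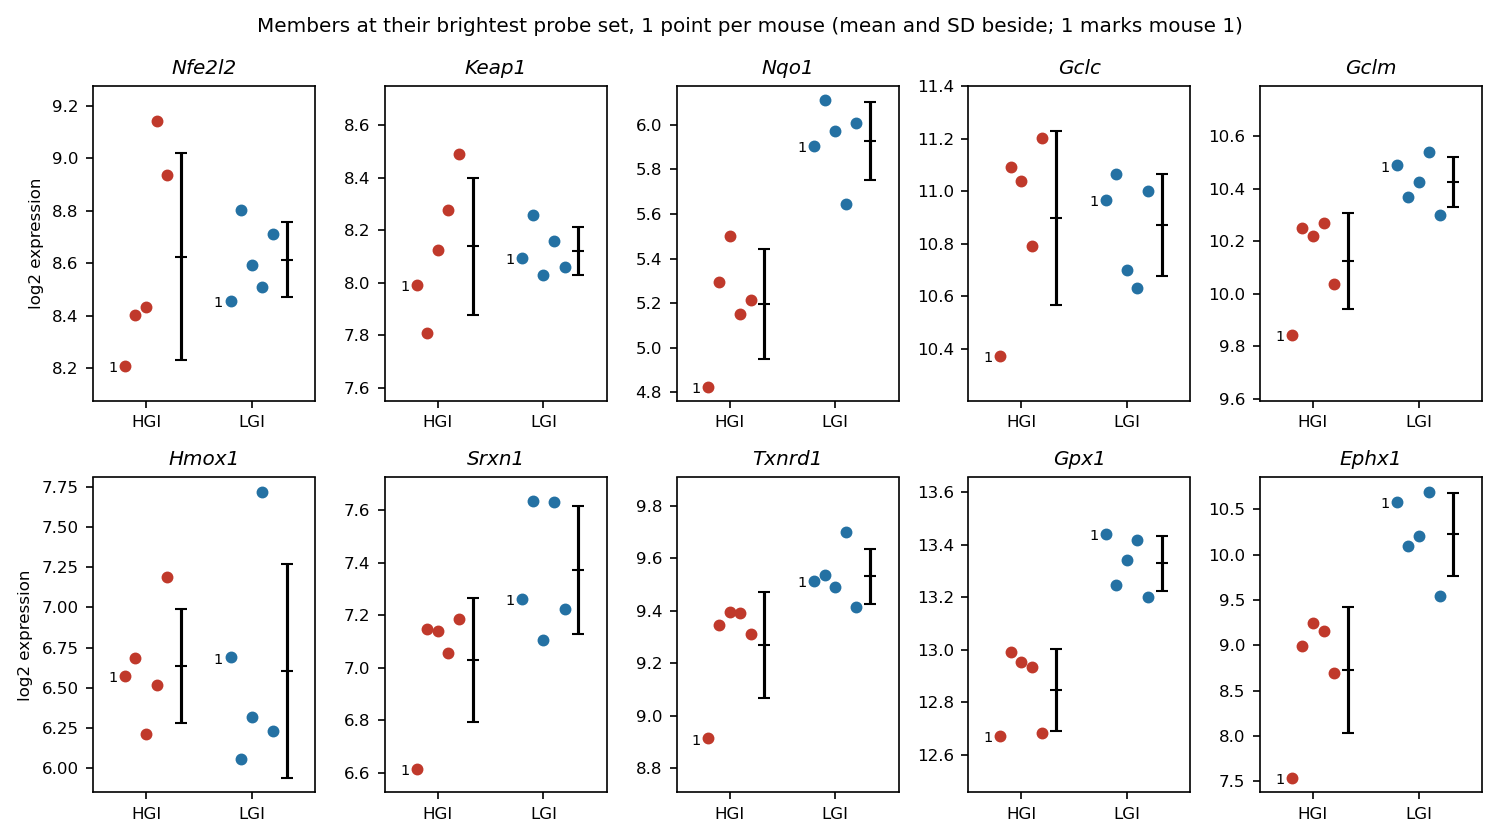
Log2 expression of the 10 genes at their brightest probe set, with 1 point for each mouse (HGI red, LGI blue), the mean and SD beside each group, and mouse 1 of each diet marked; each panel has its own vertical range. Ephx1, Nqo1, Gpx1, Gclm and Txnrd1 show no overlap between the diets, and HGI 1 is the lowest HGI mouse in 8 of the 10 panels.

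Promoter windows, or stretches of them, are shown for Ephx1 and Nqo1 and for the genes where a response element core was found. The windows run from 250 bases before to 50 bases after the gene's start, in RefSeq on the mouse build GRCm38.p6. Of the 10 genes 8 had at least 1 window, while Gclc and Hmox1 had no match. The core of the antioxidant response element was searched as TGACNNNGC on both strands, which 12.4% of all 32851 windows hold, and as TGAGNNNGC, a form added after seeing the data that 17.6% of them hold. The GC box GGGCGG, which the factor SP1 is known for binding, was in 35.7% of windows and the TATA box TATAAA in 13.6%. Capitals mark GC boxes in the first pair below (Ephx1 and Nqo1, the genes with the largest differences) and response element cores in the others: the TGACNNNGC form in Gclm, Nfe2l2 and Txnrd1, and in Srxn1 both forms, the last capitals being TGACNNNGC on the opposite strand and the other two TGAGNNNGC. Each window is written in the gene's direction.
Ephx1 (chr1:181017520-181017819, minus strand): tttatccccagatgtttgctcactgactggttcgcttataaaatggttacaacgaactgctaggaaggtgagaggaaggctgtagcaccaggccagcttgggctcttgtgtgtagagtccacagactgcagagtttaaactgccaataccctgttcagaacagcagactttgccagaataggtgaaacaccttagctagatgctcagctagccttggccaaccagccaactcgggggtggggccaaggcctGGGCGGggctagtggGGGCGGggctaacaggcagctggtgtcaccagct
Nqo1 (chr8:107403156-107403455, minus strand): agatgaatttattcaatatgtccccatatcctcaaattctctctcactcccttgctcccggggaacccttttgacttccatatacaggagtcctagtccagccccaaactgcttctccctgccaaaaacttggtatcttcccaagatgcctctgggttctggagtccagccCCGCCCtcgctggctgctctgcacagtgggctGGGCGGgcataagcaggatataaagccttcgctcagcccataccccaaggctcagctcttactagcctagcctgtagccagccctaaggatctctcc
Gclm (chr3:122245307-122245606, plus strand): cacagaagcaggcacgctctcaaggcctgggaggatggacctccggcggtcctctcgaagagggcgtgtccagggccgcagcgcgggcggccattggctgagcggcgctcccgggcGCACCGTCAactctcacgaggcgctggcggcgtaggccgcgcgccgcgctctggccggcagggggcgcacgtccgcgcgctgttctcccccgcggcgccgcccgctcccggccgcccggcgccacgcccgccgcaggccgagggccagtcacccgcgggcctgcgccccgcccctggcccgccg
Srxn1 (chr2:152105274-152105573, plus strand): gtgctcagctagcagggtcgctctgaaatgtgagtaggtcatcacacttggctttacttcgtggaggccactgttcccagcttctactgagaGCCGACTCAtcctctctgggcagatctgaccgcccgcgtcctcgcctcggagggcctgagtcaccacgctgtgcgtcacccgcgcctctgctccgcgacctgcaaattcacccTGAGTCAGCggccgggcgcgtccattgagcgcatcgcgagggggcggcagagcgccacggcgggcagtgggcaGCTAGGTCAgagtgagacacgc
Stretch of the Nfe2l2 window (chr2:75704614-75704913, minus strand): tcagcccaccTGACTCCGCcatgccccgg
Stretch of the Txnrd1 window (chr10:82858956-82859255, plus strand): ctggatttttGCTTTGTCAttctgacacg

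The core TGACNNNGC was found in windows of 4 of the 8 genes: Gclm, Srxn1, Nfe2l2 and 1 of the 3 Txnrd1 windows. In Gclm it began 134 bases before the start, in Txnrd1 92 bases before it and in Nfe2l2 240 bases before it, while in Srxn1 it lay 28 bases after the start. Srxn1 also held the TGAGNNNGC form at 158 and 45 bases before the start. The windows of Ephx1, Nqo1, Gpx1 and Keap1 held neither form, which says only that these letters are not in these windows. All 8 genes had a GC box, and the 2 TATA boxes were those of Nqo1, 29 bases before the start, and Ephx1, 214 bases before it. The genes with the core and those without it are not split by their values: Gclm, Srxn1 and Txnrd1 lay below 0 and Nfe2l2 near 0 among the first, and Ephx1, Nqo1 and Gpx1 below 0 and Keap1 near 0 among the second.

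Of the sensor pair, Nfe2l2 stood at 8.21, 8.40, 8.43, 9.14 and 8.93 log2 in HGI 1 to 5 and at 8.46, 8.80, 8.59, 8.51 and 8.71 in LGI 1 to 5. The diets overlapped fully, with the HGI mice spread more widely (SD 0.39 against 0.14, n = 5 each). The difference was 0.01 with a 95% interval of -0.33 to 0.35 (adjusted p = 0.995), so an Nfe2l2 difference of up to about that size in either direction is within the interval. A dimmer Nfe2l2 probe set, below the median of every array in both diets, stood at 0.09 (adjusted p = 0.897). Keap1, the inhibitor, was 7.99, 7.81, 8.12, 8.28 and 8.49 in HGI and 8.09, 8.26, 8.03, 8.16 and 8.06 in LGI, again overlapping, with a difference of 0.02 (95% interval -0.23 to 0.27, adjusted p = 0.987). Its other probe set stood at 0.00 (95% interval -0.36 to 0.37). NRF2 is controlled mainly through protein breakdown, which an expression array does not measure.

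Nqo1, the quinone reductase often read as an indicator of NRF2 activity, was 4.83, 5.30, 5.50, 5.15 and 5.21 log2 in HGI 1 to 5. In LGI 1 to 5 it was 5.90, 6.11, 5.97, 5.65 and 6.01. The highest HGI mouse (5.50) lay below the lowest LGI mouse (5.65). The difference was -0.73 ± 0.12 (SE; 95% interval -0.996 to -0.46), with an adjusted p of 0.0575 that places it 36th of all 45037 probe sets by p. It was past the threshold under 8 of the 20 alternatives that gave it a value, with adjusted p from 0.0198 to 0.413, and its difference stayed between -0.81 and -0.64. Its related enzyme Nqo2, which uses another cosubstrate, stood at -0.13 (adjusted p = 0.910).

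Glutathione synthesis starts with glutamate-cysteine ligase, of which Gclc is the catalytic and Gclm the modifier subunit. Gclc was 10.37, 11.09, 11.04, 10.79 and 11.20 in HGI and 10.97, 11.07, 10.70, 10.63 and 11.00 in LGI. The lowest and the highest mouse were both HGI, and the difference was 0.03 (95% interval -0.29 to 0.35, adjusted p = 0.984), with the second probe set at -0.05. Gclm was 9.84, 10.25, 10.22, 10.27 and 10.04 in HGI and 10.49, 10.37, 10.43, 10.54 and 10.30 in LGI. Here the HGI mice all lay below the LGI mice, by a narrow margin (10.27 against 10.30), with a difference of -0.30 ± 0.10 (SE; adjusted p = 0.459). The dimmer Gclm probe set overlapped and stood at -0.04 (adjusted p = 0.978), so the 2 Gclm probe sets differ in what they show.

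Srxn1, sulfiredoxin, repairs oxidised peroxiredoxins, and Txnrd1 is the cytosolic thioredoxin reductase, a selenoprotein. At the brightest Srxn1 probe set HGI mice had 6.61, 7.15, 7.14, 7.06 and 7.19 and LGI mice 7.26, 7.64, 7.11, 7.63 and 7.22. The groups overlapped through LGI 3 (7.11), and the difference was -0.34 ± 0.13 (SE; adjusted p = 0.572). The other Srxn1 probe sets stood at -0.27, -0.08 and -0.17, none past the threshold. Txnrd1 at its brightest probe set was 8.91, 9.34, 9.39, 9.39 and 9.31 in HGI and 9.51, 9.54, 9.49, 9.70 and 9.42 in LGI. These groups did not overlap, and their difference was -0.26 ± 0.10 (SE; adjusted p = 0.572), or -0.17 without HGI 1. The other Txnrd1 probe sets overlapped between the diets and stood at -0.22 and -0.21. The one at -0.21 lay below the median of every array in both diets, so it carries little signal. Probe sets whose name ends in _s_at or _x_at, among them the brightest of Srxn1, can share probes with other transcripts, so their levels are less certain.

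Gpx1, the main cellular glutathione peroxidase and also a selenoprotein, was 12.67, 12.99, 12.95, 12.93 and 12.68 in HGI. In LGI it was 13.44, 13.25, 13.34, 13.42 and 13.20. The highest HGI mouse (12.99) lay below the lowest LGI mouse (13.20). The difference was -0.48 ± 0.09 (SE; 95% interval -0.68 to -0.29, adjusted p = 0.102). Gpx1 was past the threshold under 1 of 21 alternatives, a further quantile normalization (adjusted p = 0.0422, range over alternatives 0.0422 to 0.392). HGI 1 and HGI 5 were the lowest, near each other.

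Hmox1, the inducible haem oxygenase, was 6.57, 6.68, 6.21, 6.52 and 7.19 in HGI and 6.69, 6.06, 6.32, 7.72 and 6.23 in LGI. It overlapped fully, with a difference of 0.03 (95% interval -0.55 to 0.61, adjusted p = 0.991), the widest interval of the list after that of Ephx1. LGI 4 alone lay above 7.19, and without it the difference was 0.31 (adjusted p = 0.731). Hmox1 is also made by macrophages. The summed level of 11 Kupffer cell and macrophage markers was highest, within each diet, in the same mice, HGI 5 (4872 on the linear scale, against 2841 to 3447 in the other HGI mice) and LGI 4 (4002, against 2336 to 3305). In LGI 4 the summed level of 5 neutrophil markers was also 1178, against 104.1 to 114.5 in the other LGI mice. That sum was led by S100a8 and S100a9 (8.92 and 9.31 log2 in LGI 4), while Mpo, Ngp and Camp stood at 4.20 to 4.39. The part of these cells in the Hmox1 values was not tested.

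Ephx1 had the largest difference of the 10 genes. It was 7.53, 8.99, 9.24, 9.16 and 8.70 log2 in HGI 1 to 5, a mean of 8.72 ± 0.70 (SD, n = 5). In LGI 1 to 5 it was 10.58, 10.10, 10.21, 10.69 and 9.54, a mean of 10.23 ± 0.46 (SD, n = 5). HGI 1 lay far below the other mice of its diet, LGI 5 was the lowest of its own, and the diets did not overlap. The difference was -1.50 ± 0.30 (SE; 95% interval -2.14 to -0.86), with an adjusted p of 0.118 and the 80th place of all probe sets by p. It was -1.20 without HGI 1 and lay between -1.67 and -1.09 over all 21 alternatives, none of which took it past the threshold (adjusted p from 0.0584 to 0.523).

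**Figure D2:**
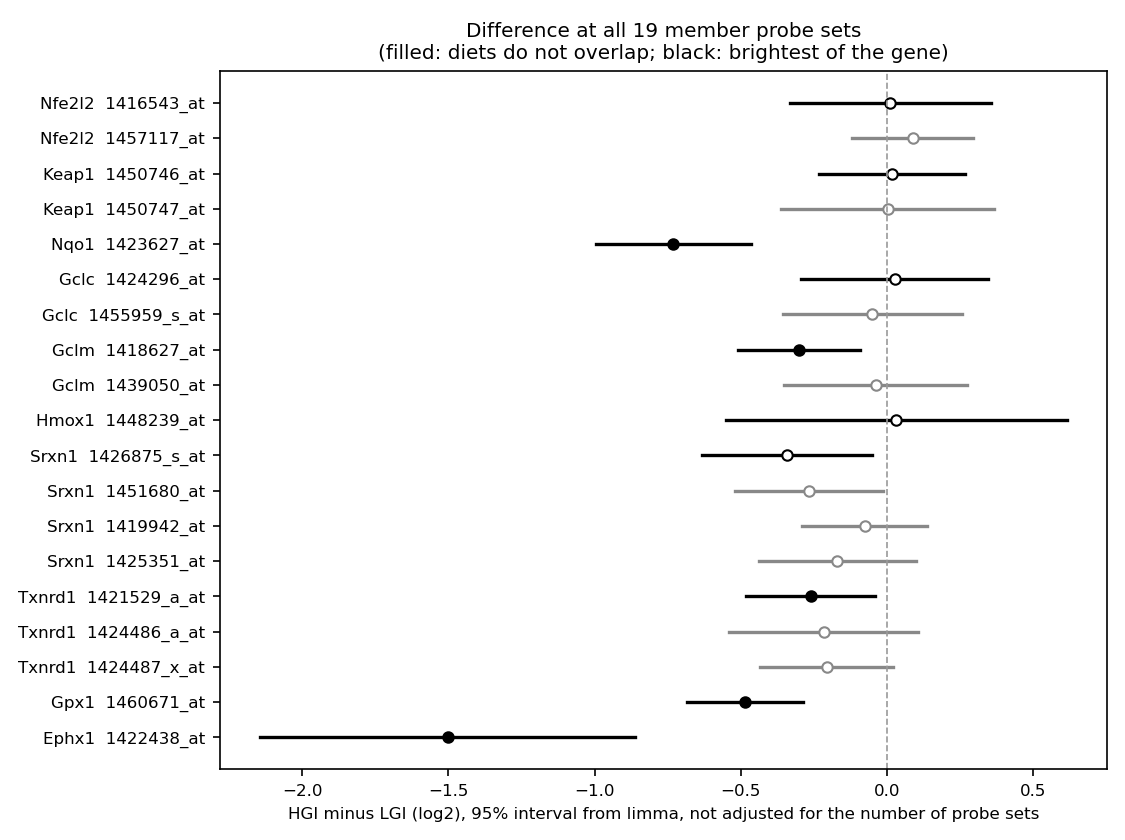
HGI minus LGI difference (log2) with its 95% interval from limma at each of the 19 probe sets, not adjusted for the number of probe sets; filled points mark diets that do not overlap and black marks the brightest probe set of a gene. The intervals of Ephx1 (-2.14 to -0.86), Nqo1 (-0.996 to -0.46) and Gpx1 (-0.68 to -0.29) lie wholly below 0, while those of both Nfe2l2, both Keap1 and both Gclc probe sets and of Hmox1 span 0.

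Each target was also set against a relative within the same array, so that an equal shift of all genes on an array drops out. A narrower spread of an array, as in HGI 1, does not drop out where the 2 genes differ in level. There were 7 pairs, chosen after the values were seen, and p-values are from the two-sided exact permutation over all 252 assignments of the arrays, whose smallest value is 0.00794, adjusted over the 7 pairs. They are no independent support, since the differences of the 10 genes were known. Ephx1 minus Ephx2, the soluble epoxide hydrolase that acts on fatty acid epoxides, was -2.05 ± 0.51 in HGI and -0.94 ± 0.44 in LGI (SD, n = 5 each), without overlap (exact permutation p = 0.00794, adjusted 0.0278). Ephx2 itself stood at -0.39 (adjusted p = 0.522), so the Ephx1 difference exceeded it by 1.12 log2, and by 0.892 without HGI 1. Nqo1 minus Nqo2 differed by -0.60 between the diets, without overlap (exact permutation p = 0.00794, adjusted 0.0278).

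The other pairs did not pass. Gclm minus Gclc differed by -0.33 (exact permutation p = 0.103, adjusted 0.181), so a different shift of the ligase's subunits was not established. Gpx1 minus Gpx4, the peroxidase of membrane lipids, differed by -0.18 (exact permutation p = 0.0952, adjusted 0.181), with Gpx4 itself at -0.30 (adjusted p = 0.354). Txnrd1 and its mitochondrial relative Txnrd2 stood side by side at -0.26 and -0.28, and their within-array difference was 0.02 (exact permutation p = 0.841). Hmox1 minus the constitutive Hmox2 differed by 0.12 and Nfe2l2 minus Keap1 by -0.01, both with overlapping groups (exact permutation p = 0.746 and 0.968).

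**Figure D3:**
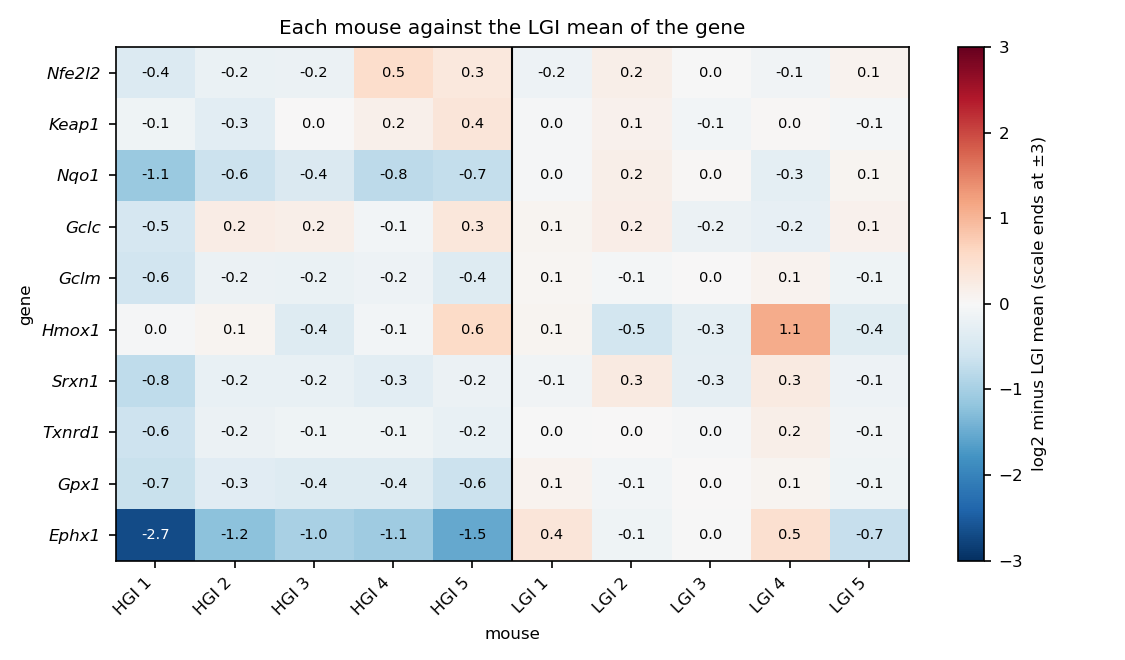
Log2 expression of each mouse minus the LGI mean of the gene, for the 10 genes (rows) and 10 mice (columns, HGI left of the line), on a colour scale ending at 3 in either direction. The rows of Ephx1, Nqo1, Gpx1, Gclm, Txnrd1 and Srxn1 are below 0 in all 5 HGI mice, HGI 1 is the lowest in Ephx1 at -2.7, and the row of Hmox1 is led by LGI 4.

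Within a diet, 4 of the genes varied together from mouse to mouse. Over the 10 arrays, after the mean of each diet was subtracted, Pearson's r with Ephx1 was 0.95 for Gclm, 0.94 for Txnrd1 and 0.84 for Gpx1. HGI 1 was low in all of them. Without HGI 1 these values were 0.88, 0.81 and 0.82, over 9 arrays. Between Txnrd1 and Gpx1 r was 0.68, and 0.55 without HGI 1. Srxn1 had r = 0.82 with Txnrd1 and 0.66 with Ephx1, which were 0.63 and 0.25 without HGI 1. Nqo1 did not follow Ephx1 in this way (r = 0.39, and -0.38 without HGI 1), and was nearest to Gclc among the 10 (r = 0.80, and 0.58 without HGI 1). It ran opposite to Hmox1 (r = -0.60, and -0.87 without HGI 1). Between Gclc and Gclm r was 0.30, and -0.70 without HGI 1, so its sign rests on that array. Nfe2l2 and Keap1 had r = 0.73, and 0.71 without HGI 1. These correlations describe a few mice on shared array normalization and carry no test. What r is usual over all pairs of genes was not taken, so they are not shown to be particular to these genes.

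Among 7160 other genes whose mean log2 reached 6, those most like Ephx1 by the same measure were Gabarap (r = 0.98), Sod2 (0.96), Crim1, Ifnar2 (both 0.96) and Gclm (0.95). Sod2, the mitochondrial superoxide dismutase, differed by -0.25 between the diets without overlap (adjusted p = 0.562), and Gabarap, a protein of autophagosome membranes, by -0.03 (adjusted p = 0.966). Those most like Nqo1 were Cyp4f15 (0.98), Sik3 (0.97), Ptk2b, Mast3 (both 0.96) and Xpc (0.96), of which none passed the threshold between the diets. The lists for Ephx1 and Nqo1 share 0 genes.

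Other genes that NRF2 is known to regulate were taken from a list, of which 31 of 36 were measured. Of these 0 rose and 1 fell past the threshold over all probe sets, where 0.0440% of all named genes fell: Gsta2, a glutathione transferase (8.03 ± 0.18 against 9.59 ± 0.53 log2, SD, n = 5 each; adjusted p = 0.0211). Gsta2 was past the threshold under 15 of 20 alternatives and not without HGI 5, LGI 2, LGI 3 or LGI 5 (adjusted p = 0.0540, 0.0674, 0.0757 and 0.0868) or with the unmoderated test (0.357); its difference lay between -1.79 and -1.45. At an unadjusted p under 0.05, 15 of the 31 were lower and 1 was higher, where 6.23% of all named genes were lower and 3.07% higher, and the list's median was -0.30. Without HGI 1 the lower count was again 15, where 4.96% of all named genes were lower, and the median was -0.27. The list was also chosen with earlier results of these data known, so its counts are description only. Gstm3, another glutathione transferase, stood at -1.12 (adjusted p = 0.0711), Abcc4, an export pump of conjugates, at -1.27 (adjusted p = 0.0810) and Ugdh, which makes the glucuronic acid donor, at -0.67 (adjusted p = 0.102). Of the pentose phosphate and NADPH-supplying enzymes on the list none passed: Pgd stood at 0.34 (adjusted p = 0.647), Me1 (malic enzyme) at 0.27, Tkt at 0.07 and Taldo1 at 0.00. The haem and iron genes Fth1 and Fech stood at 0.05 each.

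Among 16 partners and regulators of NRF2, 0 passed in either direction, with a median of -0.08. Mafg, a small MAF partner, stood at -0.45 (adjusted p = 0.549), Gsk3b, a kinase that marks NRF2 for breakdown, at -0.24 (adjusted p = 0.555), and Rbx1, a part of the ubiquitin ligase, at 0.29 (adjusted p = 0.532). Bach1, a repressor at the same elements, stood at -0.38 (adjusted p = 0.764) and Cul3, the ligase's scaffold, at -0.09.

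The neighbouring enzyme systems had 0 genes past the threshold. Of 18 measured genes of glutathione synthesis, reduction and peroxidases, with a median of -0.12, Gpx4 stood at -0.30 and Hagh at -0.30, while Gpx3, the secreted plasma peroxidase, stood at 0.85 without overlap (adjusted p = 0.412) and Ggct at 0.55 (adjusted p = 0.537). The 12 thioredoxin and peroxiredoxin genes had a median of -0.13, with Txnrd2 at -0.28 and Msra, a methionine sulfoxide reductase, at -0.26 (adjusted p = 0.464), against Prdx4, of the endoplasmic reticulum, at 0.28 (adjusted p = 0.602). The extracellular dismutase Sod3 stood at 0.42 (adjusted p = 0.584), opposite to Sod2, and catalase, Cat, at 0.08. Of 7 quinone and carbonyl reductases, with a median of -0.13, Cbr1 stood at -0.64 (adjusted p = 0.270) and Cbr3 at -0.30 (adjusted p = 0.498). The 4 genes of haem breakdown and scavenging had a median of -0.11, with Blvra at -0.19.

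Besides Ephx2, the epoxide hydrolases Ephx3 (0.03) and Ephx4 (-0.24) lay below the median of every array in both diets, and Lta4h, which hydrolyses leukotriene A4, stood at 0.10. A list of 11 selenoprotein genes, which joins factors that build selenocysteine into proteins with the selenoproteins Selenop, Selenof, Selenok and Dio1, had a median of 0.03. Of the factors, Eefsec, the elongation factor for selenocysteine, stood at -0.17 (adjusted p = 0.822), and of the selenoproteins, Selenok stood at 0.23 (adjusted p = 0.630). The 7 measured housekeeping genes had a median of 0.05 and lay between -0.22 (Hprt) and 0.11 (B2m).

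The receptors CAR and PXR and their target genes, beside which Ephx1 is often listed, had 17 measured members. None passed over all probe sets, 10 were lower and 0 higher at an unadjusted p under 0.05, where 6.23% of all named genes were lower and 3.07% higher, and the median was -0.39. Without HGI 1, 5 were lower, where 4.96% of all named genes were lower, and the median was -0.32. This list too was chosen with earlier results of these data known, so its counts are description only. Cyp3a11 and Cyp2b9, cytochromes P450, stood at -1.05 and -1.11 (adjusted p = 0.0700 and 0.459), Aldh1a1, a retinaldehyde dehydrogenase, at -0.74 (adjusted p = 0.161) and Ces2a, a carboxylesterase, at -0.75 (adjusted p = 0.321). Of the receptors, Nr1i2 (PXR) stood at -0.39 (adjusted p = 0.627) and Nr1i3 (CAR) at 0.13 (adjusted p = 0.953).

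**Figure D4:**
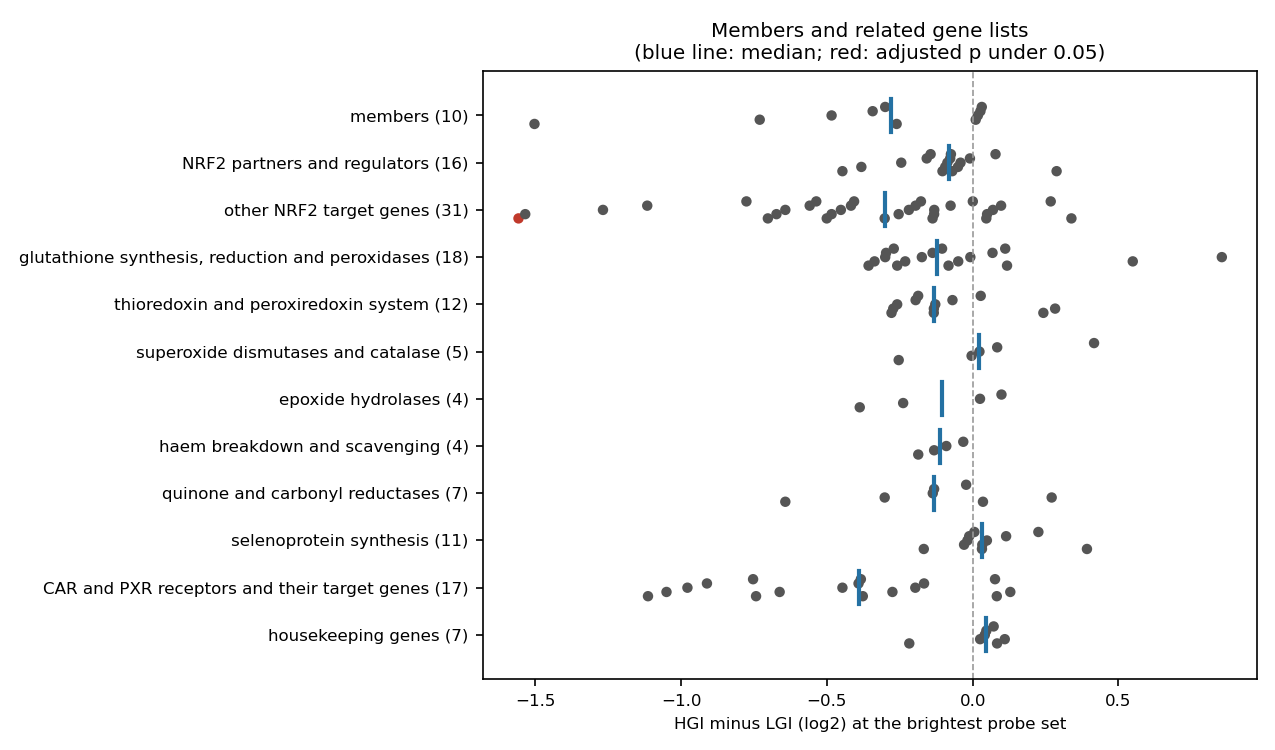
HGI minus LGI difference (log2) of each gene at its brightest probe set, for the 10 genes and 11 related lists (number measured in brackets), with the median as a blue line and adjusted p under 0.05 in red. The medians of the 10 genes (-0.28), of the other NRF2 targets (-0.30) and of the CAR and PXR list (-0.39) lie furthest below 0, and Gsta2 is the only red point.

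The arrays read as liver: the summed linear level of 9 hepatocyte markers lay between 116782 and 121681 in HGI and between 114934 and 122379 in LGI. Kupffer cell and macrophage markers were above 0 for 11 of 11 genes, with summed levels of 2841 to 4872 in HGI and 2336 to 4002 in LGI, and endothelial markers for 9 of 10, with 1287 to 1886 against 1099 to 1646. Of 6 cholangiocyte markers 4 were below 0, and their sum was 188.4 to 339.0 in HGI and 413.4 to 612.4 in LGI, led by Prom1 (adjusted p = 0.0480, and past the threshold under 7 of 20 alternatives), while Krt19 stood at 0.12 and Krt7 and Cftr lay below the median of every array. The 3 erythroid markers were above 0, with 482.3 to 1260 against 173.2 to 650.8. Of them Slc4a1, the red cell anion exchanger, stood at 2.25 without overlap (adjusted p = 0.0625), and a dimmer probe set of it was higher in HGI by 2.57 (adjusted p = 0.0211, past the threshold under 13 of 18 alternatives). Alas2, which starts haem synthesis in red cells, stood at 1.34 (adjusted p = 0.262), and Hba-a1, a globin, stood at 0.016 and lay below the median of every array. Of 8 stellate cell markers 4 lay on each side of 0, and T and B cell (7 measured), neutrophil (5) and adipocyte (3) markers had medians of 0.06, 0.01 and -0.04. The Gapdh 3' minus 5' difference, a sign of RNA quality, was 0.55 ± 0.28 in HGI and 0.59 ± 0.21 in LGI (SD, n = 5 each). That of Actb was larger, at 1.71 ± 0.30 in HGI and 1.88 ± 0.39 in LGI (SD, n = 5 each). The part of these cell types in the differences above was not tested.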

How the data were processed

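Expression was read on Affymetrix arrays, 1 for each mouse, and the deposited table holds log2 values. The submitters' processing notes name R 2.6.1 and RMA, a method that removes background, gives all arrays 1 distribution and summarises each probe set. These sources name no genome build. Per the labels' protocols, RNA was extracted with an RNeasy Mini Kit and labelled in a one-cycle reaction.

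The 64 control probe sets were left out and 45037 were tested without a filter on dim signals. Symbols came from the platform annotation, with gene IDs checked in RefSeq (0 symbols changed); 34945 probe sets had 1 symbol, 932 had several and 9160 had none. The diets were compared by lmFit and eBayes of limma 3.58.1 (R 4.3.3) without covariates, with Benjamini-Hochberg adjustment over all probe sets. In simulated data for this comparison of 45037 probe sets, 77% of 100 changed by 2-fold and 99% of 100 changed by 4-fold were recovered, with 16 false calls among 192. The simulation placed its changes only where the mean log2 reached 6. Recovery of dimmer probe sets, such as that of Nqo1, is therefore not known from these shares. They hold for the simulated data only: in the arrays themselves the 29 calls became 5 to 49 when 1 array was left out. The number of arrays, 5 per diet, limits the precision.

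Named list genes were those past the threshold and up to 4 with the smallest p, and the 5 genes most like Ephx1 and Nqo1; a few others were chosen after their values were seen. The genes and lists were chosen with earlier results of these data known. Alternatives were filters, normalizations, spread models, array weights, other ways of choosing a gene's probe set, a replicate block, an unmoderated test and leaving out arrays; those without HGI 1 and LGI 4 together, the counts at an unadjusted p, the within-array pairs and the alternatives for Gsta2, Prom1 and Slc4a1 were chosen after seeing the data.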

Additional observations from a re-analysis of the deposited data

Results flagged for a closer look

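HGI 1 lay apart from the other HGI mice at 2 of the 19 probe sets, and no LGI mouse lay apart at any of the 19, judged by the gap to its nearest neighbour over the range of the 5. At the brightest of Srxn1 it stood at 6.61 log2, with the next at 7.06 and the highest at 7.19. At the brightest of Txnrd1 it stood at 8.91, with the next at 9.31 and the highest at 9.39. The other probe sets of these genes did not all rank it low. At those of Txnrd1 it was the highest HGI mouse (6.58 and 3.51). At those of Srxn1 it stood at 5.89, 5.78 and 3.44, the next to lowest, the highest and the lowest of HGI. Chance alone marks about 1 in 20 of the 38 sets of 5 values looked at. HGI 1 also had the narrowest spread of all arrays, and its part in these values was not tested; without it the differences were -0.24 for Srxn1 and -0.17 for Txnrd1.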

How the results depend on the processing

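The directions of Ephx1, Nqo1, Gpx1, Gclm, Srxn1 and Txnrd1 held under every alternative that gave them a value (Nqo1, at a mean log2 below 6, has none under that filter). The count of 0 of the 19 probe sets past the threshold became 1 (Nqo1) when probe sets dimmer than the median were left out, with array weights, with 1 probe set per gene and without HGI 1 and LGI 4, and 2 (Nqo1 and Gpx1) with a further quantile normalization; leaving out 1 array gave 0 to 1, the 1 being Nqo1 without HGI 3 or without LGI 4. Nqo1 also passed when each gene's probe sets were averaged (adjusted p = 0.0489). Over all probe sets the count of 29 was 63 with a further quantile normalization, 64 with array weights, 58 without HGI 1 and LGI 4, 17 with median centring (13 higher and 4 lower, against 17 and 12) and 1 with the unmoderated test, and 5 to 49 when 1 array was left out. Without HGI 5, LGI 2, LGI 3 or LGI 5 those past it were 7, 5, 5 and 5 higher and 0 lower, and the unmoderated test gave 1 higher and 0 lower. The cause was not tested. Genes near 0 changed sign: Gclc was -0.012 when its probe sets were averaged, and with 1 array left out Nfe2l2 ran from -0.12 to 0.11, Keap1 from -0.071 to 0.10, Gclc from -0.050 to 0.16 and Hmox1 from -0.11 to 0.31. The labels number mice 1 to 5 in each diet without saying that numbers pair them, and deviations of same-numbered mice correlated between -0.05 and 0.07; with the replicate block 33 probe sets passed, and 0 of the 19. The count of 7 of the 19 at an unadjusted p under 0.05 lay between 5 and 7 under the alternatives that kept all 19. It was 7 of 16 when those dimmer than the median were left out. It was 5 of the 14 whose mean log2 reached 6, and 6 of 10 with 1 probe set per gene. Apart from the main setting, the matching share of all probe sets was taken only with HGI 1, LGI 4 or both left out. Probe sets below the array medians (3.91 to 3.97 log2), such as the dimmer one of Nfe2l2, carry little signal over background.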

Other observations

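The metallothioneins, metal-binding proteins that stress and metals induce and that NRF2 can also regulate, set LGI 4 apart. Mt1 was 14.07 log2 in LGI 4 and 12.49 to 12.87 in the other LGI mice, and 11.57 to 13.15 in HGI. Between the diets Mt1 stood at -0.70 (adjusted p = 0.675) and Mt2 at -0.78 (adjusted p = 0.805). The same mouse had the highest Hmox1 of all 10 (7.72). Its S100a8 was 8.92, against 3.95 to 4.28 in the other LGI mice and 3.88 to 6.28 in HGI. Its S100a9 was also the highest (9.31). The other neutrophil markers did not set it apart in this way. Mpo (4.29) and Ngp (4.39) were close to the highest HGI mouse (4.19 and 4.38), and Camp (4.20) was below HGI 5 (4.33).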
